A study of Zea mays with 6 samples.

Results

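Histone genes and cell cycle regulators were examined in leaf RNA of maize (Zea mays). The genes were chosen by words in the deposited gene names and descriptions, such as "histone H", "cyclin", "cell division" and "minichromosome maintenance". Of 45953 annotated features, 296 carried one of these words, and 6 of them were set aside because they are described as histone-modifying enzymes or FTSH proteases. The remaining 290 genes comprised 91 histones, 135 cyclins, cyclin-dependent kinases (CDKs) and their inhibitors, 60 genes of DNA replication and cell division, and 4 genes that matched by letters alone. The label holds for the histones, cyclins and CDKs. In the group of DNA replication and cell division, many descriptions under "cell division" name proteins that act elsewhere, and these are described apart.

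RNA of 6 leaf samples was sequenced, 3 labelled LW and 3 labelled CW. LW stands for plants kept in drought and watered continuously by negative pressure irrigation, which lets dry soil pull water out of a vessel held at suction. CW stands for drip-irrigated plants in moist soil. The way of watering and the soil moisture differ together and cannot be told apart, and no cultivar difference or further treatment is labelled.

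Nucleosomes wrap DNA around the core histones H2A, H2B, H3 and H4, and linker histone H1 binds the DNA that enters and leaves them. Most core histone genes are transcribed while DNA is copied, in the S phase, whereas some variants are made throughout the life of a cell; plant histone mRNAs carry poly(A) tails. Entry into and passage through the cell cycle are driven by CDKs bound to cyclins and are held back by CDK inhibitors. In a grass leaf, cells divide near the base and stop dividing as they are displaced towards the tip, so a mature blade is expected from textbook knowledge to hold few dividing cells.

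The libraries held 42927751 to 84084375 counts, with 62327457 or more in LW and 64067543 or fewer in CW. Levels of different genes are compared as FPKM (fragments per kilobase of transcript and per unit of sequencing depth), which adjusts for gene length, averaged over the 6 libraries. Groups are compared as CPM (a gene's share of its library's counts, on library sizes scaled by TMM, the trimmed mean of M values), and tested with edgeR's quasi-likelihood test. A gene was called where its p, adjusted by the Benjamini-Hochberg method over all 24704 tested genes, was under 0.05. The labels do not say whether libraries came from separate plants, so each p-value reflects only the spread seen among these libraries, some of which may be technical. Near-identical histone copies can exchange reads in counting, so values of single copies are uncertain and sums over a class are given beside them.

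Histone mRNAs were abundant, while A-type cyclins and some CDK families were close to 0. Summed mean FPKM was 734 for the 36 H2A genes, 513 for the 19 H3 genes, 331 for the 5 H1 genes, 304 for the 14 H2B genes and 182 for the 17 H4 genes. In contrast, the 17 A-type cyclins, which act in S phase and before mitosis, summed to 5.09 FPKM, and 12 of them were listed at 0 in every library. The 9 genes described as CDKB1-1, a plant CDK active around entry into mitosis, summed to 1.19 FPKM. The 15 described as CDKG-1 summed to 0.97 FPKM, with 11 listed at 0. Other mitotic genes were higher: the 7 B-type cyclins summed to 30.6 FPKM, with 3 of them above 1 FPKM, and the 5 genes described as CDC20 or CDC27 summed to 40.2 FPKM, of which Zm00001d016034 gave 38.3.

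A few copies supplied most of each histone class. The 3 most abundant H3 genes gave 88.4% of the H3 FPKM, the 3 most abundant H1 genes 92.6% of the H1 FPKM, and the corresponding shares were 52.0% for H2A, 69.2% for H2B and 67.8% for H4. The highest histone was the H3 gene Zm00001d045475 at 173 FPKM, followed by the H2A variant described as H2A.4, Zm00001d006213, at 153 FPKM and the linker histone Zm00001d002601, described as H1-3, at 145 FPKM. The 3 genes described as H2A.X, a variant phosphorylated at DNA breaks, were listed at 0 in every library.

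**Figure D1:**
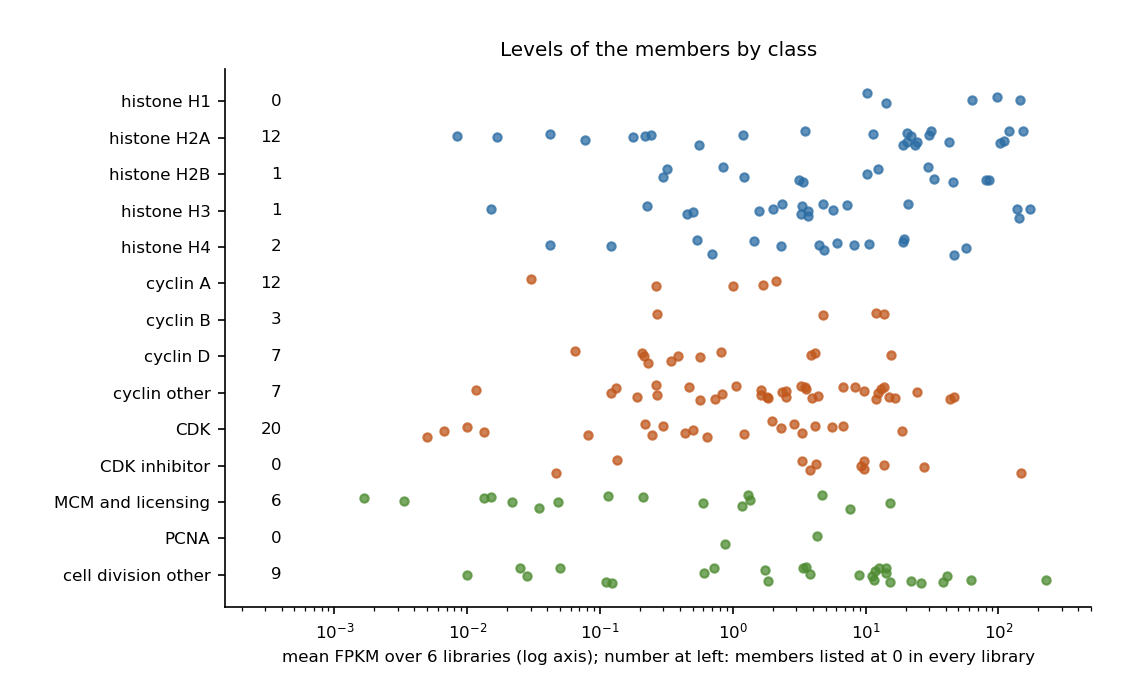
Mean FPKM over the 6 libraries (horizontal log axis) for each member by class, with the number of members listed at 0 in every library printed at the left. Histones (blue) reach 173 FPKM, cyclins, CDKs and inhibitors (orange) range from 0 to 147 FPKM with A-type cyclins at 2.11 FPKM or less, and replication and division genes (green) spread from the lowest levels to 229 FPKM.

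Across all 290 genes, 175 passed the filter on low counts and were tested, 35 lay below it and 80 had no count in any library. Of the 175, 2 were called higher in LW and 4 lower, against 2.84% of all tested genes called higher and 2.40% called lower. The median log2 fold change of the 175 was -0.01 and that of all tested genes 0.06. On the TMM scale the groups differed in direction: the 67 tested histones had 4 called lower and none higher with a median of -0.29. The 72 tested cyclins, CDKs and inhibitors had none called and a median of 0.04. The 32 tested replication and division genes had 1 called higher, none lower and a median of 0.65.

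At an unadjusted p under 0.05, where 13.3% of all tested genes were higher and 11.4% lower, the histones held 2 higher and 15 lower (22.4%), the cyclin and CDK group 6 higher and 11 lower (15.3%), and the replication and division group 9 higher (28.1%) and 2 lower. The histone counts depended on the scaling: with library totals in place of TMM they were 3 higher and 9 lower. Of 13 tested H2B genes 8 were then fitted above 0, against 3 with TMM. For H4 it was 8 of 13 against 6, and for H3 without the centromeric gene 11 of 16 against 8. All 4 linker H1 genes stayed below 0. Every LW library was above every CW library in 19.7% of all tested genes and below in 14.9%. The corresponding counts were 3 above and 16 below (23.9%) for histones, 15 above and 11 below for cyclins and CDKs, and 13 above (40.6%) and 3 below for replication and division. Within the replication and division group, other cell division genes, such as CDC48, CDC50 and plastid division, held 7 of the 9 and 8 of the 13. MCM and licensing genes held 2 and 3 of these, and PCNA 0 and 2. Both sets of higher counts include genes with no CW count, 2 in the cyclin and CDK group and 1 MCM gene. They passed the filter only through LW, which fixed their separation. The shares describe the lists and were not tested.

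**Figure D2:**
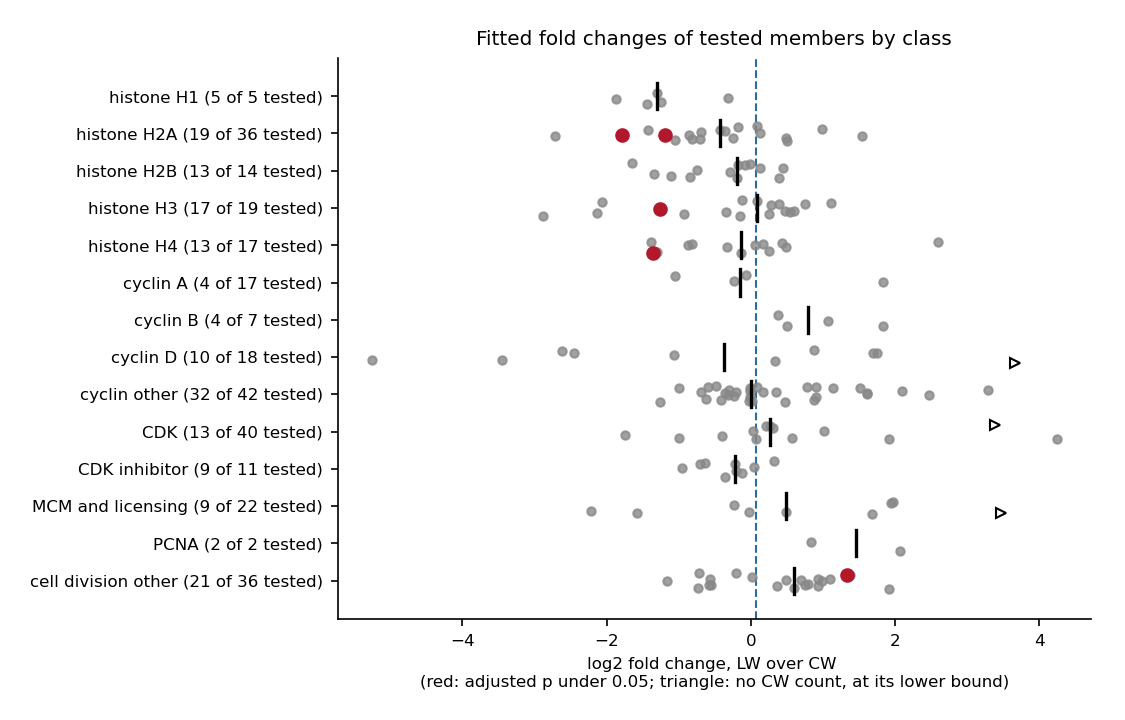
Log2 fold change of LW over CW (horizontal axis) for each tested member by class. Red points are the called genes, black bars the class medians, open triangles genes with no CW count at their lower bound, and the dashed line the median of all tested genes (0.06); the H1 points lie at or below -0.32, and the called histones lie between -1.79 and -1.19.

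The core histone genes that fell in LW were 1 H4 gene, 1 H3 gene and 2 H2A genes, and each fell by more than its libraries' spread. The H4 gene Zm00001d005791 (chromosome 2, 188810174 to 188810485; positions are as deposited and their genome build is not given in the sources used here) is the most abundant H4 gene at 57.3 FPKM. It measured 32.4, 34.2 and 23.8 CPM in the CW libraries and 9.79, 12.9 and 12.5 CPM in the LW libraries. The groups did not overlap, and the fitted change was 2.57-fold lower (log2 -1.36, SE 0.27, edgeR adjusted p = 0.0389).

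The H3 gene Zm00001d029394, named uaz248a(his3) (chromosome 1, 68805980 to 68808399), gave the largest histone counts in CW. It measured 543, 542 and 405 CPM in CW and 212, 222 and 190 CPM in LW. Every LW library lay below every CW library, at 208 ± 16.8 against 497 ± 79.3 CPM (SD, n = 3 each), and the fitted change was 2.39-fold lower (edgeR adjusted p = 0.0424).

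The H2A gene Zm00001d038381 (chromosome 6, 155954300 to 155955375) measured 206, 168 and 194 CPM in CW and 86.2, 93.2 and 68.6 CPM in LW, 2.29-fold lower (edgeR adjusted p = 0.0408). The H2A gene Zm00001d013300 (chromosome 5, 8016323 to 8018515) measured 132, 109 and 52.8 CPM in CW and 24.8, 35.7 and 24.7 CPM in LW, 3.45-fold lower (edgeR adjusted p = 0.0450). Both showed separate groups, and in the second the CW libraries themselves spread widely, with CW replicate 3 the lowest.

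These 4 calls sit close to the threshold. None of them remained with any 1 library left out except CW replicate 3, whose removal left 9 histones called lower, these 4 among them. That removal also raised the genes called lower over all 24704 from 592 to 1287. None of the 4 was called with library totals in place of TMM, a scaling that moved the median log2 fold change of all genes from 0.06 to 0.42. DESeq2, another count test, called 12 histones lower and 1 higher, and 2036 lower and 2421 higher of all 24704 tested genes.

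**Figure D3:**
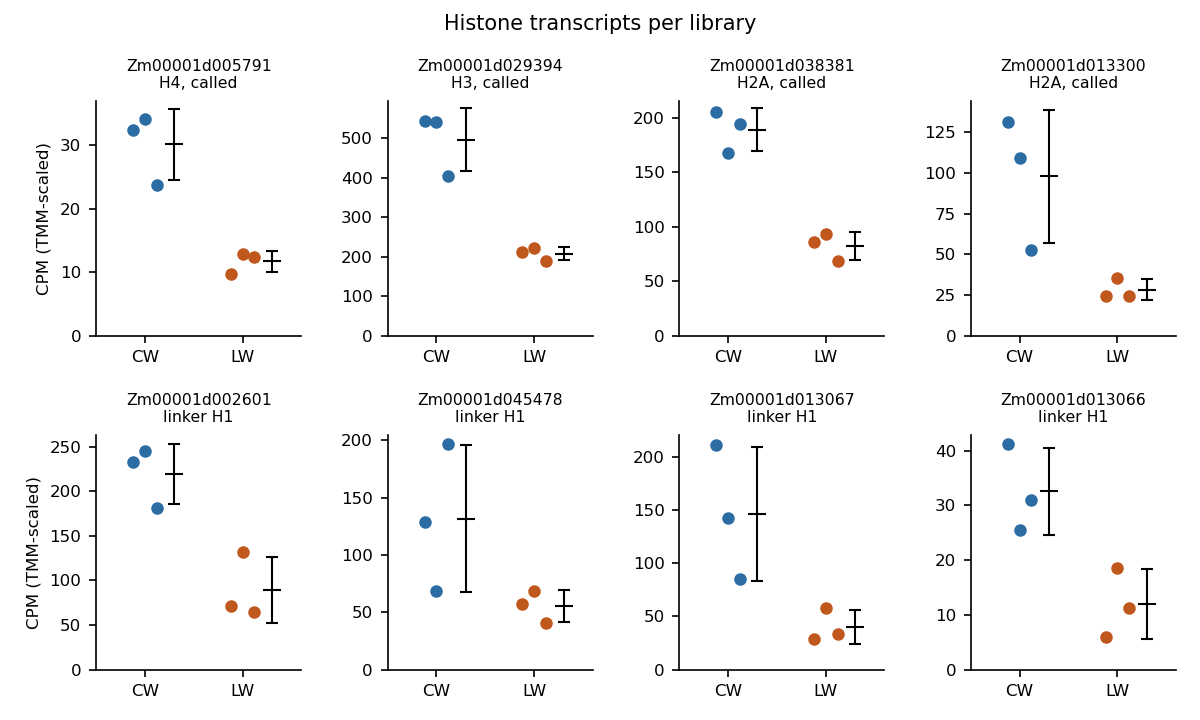
CPM (vertical axes from 0) of the 4 called core histones and the 4 linker H1 genes in each library, with replicates 1 to 3 from left to right in CW (blue) and LW (orange) and the mean with SD (n = 3) in black. In all 8 panels every LW library lies below every CW library, narrowly so for Zm00001d045478 (68.8 against 69.0 CPM).

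On the TMM-scaled CPM, all 4 linker histone genes had lower values in every LW library than in any CW library, as did 14.9% of all tested genes. None of the 4 passed the edgeR threshold. DESeq2 called all 4 lower, with adjusted p of 0.00515 for Zm00001d002601, 0.0209 for Zm00001d013066, 0.000594 for Zm00001d013067 and 0.0338 for Zm00001d045478. DESeq2 called more genes throughout, 32 of the 175 tested members against 6 with edgeR. Members of other classes, such as cyclin-U3-1 (Zm00001d038133) and Zm00001d022619, were also called lower by it, so such calls are not particular to H1. The separation depended on the scaling for 2 of them: in FPKM, Zm00001d045478 was at 90.4 in LW replicate 2 against 64.05 in CW replicate 2, and Zm00001d013066 at 14.9 against 14.38, and both also overlapped on library totals. Zm00001d002601, described as H1-3, measured 233, 245 and 181 CPM in CW and 71.8, 132 and 64.1 CPM in LW (log2 fold change -1.30, SE 0.34, edgeR adjusted p = 0.0715). In Arabidopsis the variant H1.3 is known as the linker histone induced by drought and low light; the maize description alone does not establish that this gene is its counterpart. Here its LW values were the lower ones.

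Zm00001d013067 measured 211, 142 and 85.3 CPM in CW and 28.9, 57.7 and 33.3 CPM in LW (log2 fold change -1.87, SE 0.42, edgeR adjusted p = 0.0521). Its neighbour on chromosome 5, Zm00001d013066, measured 41.2, 25.5 and 31.1 CPM in CW and 5.997, 18.6 and 11.2 CPM in LW (adjusted p = 0.0960). Zm00001d045478 measured 129, 69.0 and 197 CPM in CW and 57.1, 68.8 and 40.6 CPM in LW (adjusted p = 0.118). Together the 4 genes gave 614, 482 and 495 CPM in CW and 164, 277 and 149 CPM in LW, without overlap. With FPKM rescaled to equal totals the gap was narrow, at 549 in LW replicate 2 against 577 in CW replicate 2. The fifth H1 member, Zm00001d011252, is a MYB-domain protein with a linker-like domain; its values overlapped between groups (log2 fold change -0.32).

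Summed over all 91 genes, histones gave 2930, 2637 and 2289 CPM in CW and 1676, 1682 and 1508 CPM in LW. The group means of 2619 ± 321 and 1622 ± 98.4 CPM (SD, n = 3 each) differed by 1.61-fold, without overlap. By library totals the ratio of LW to CW was 0.795, and by FPKM rescaled to equal totals 0.926 with overlapping libraries. An exact test of 3 values against 3 cannot go below p = 0.1, so sums are given without a test. In whole-leaf RNA, fewer cells of a type and less RNA per cell cannot be told apart.

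The class sums in CPM were 515 ± 6.38 in LW against 845 ± 180 in CW for H2A, 192 ± 15.9 against 251 ± 47.8 for H2B, 645 ± 85.0 against 888 ± 38.9 for H3 and 55.9 ± 7.87 against 83.2 ± 9.28 for H4. The H3 and H2B directions turned with FPKM rescaled to equal totals, where the ratios of LW to CW were 1.17 and 1.08. The 83 histones other than the 4 called genes and the 4 linker genes gave 1094 ± 74.2 CPM in LW and 1275 ± 144 CPM in CW, with overlapping libraries. The lower histone total in LW thus rested largely on these 8 genes, which were picked out for their values.

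Shares within a library do not depend on how libraries are scaled against each other. The H1 class made up 19.9%, 17.9% and 21.2% of all histone FPKM in the CW libraries and 9.88%, 15.5% and 9.17% in the LW libraries. Per 100 FPKM of core histone mRNA, the 4 linker genes gave 24.4, 21.1 and 26.4 FPKM in CW and 10.3, 17.8 and 9.56 FPKM in LW. The linker share was therefore lower in every LW library than in any CW library, on a measure free of the scaling that moved the sums.

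The make-up of the H3 and H4 mRNA pools also differed. Zm00001d029394 supplied 38.9%, 42.5% and 28.3% of H3 FPKM in CW and 15.8%, 19.5% and 19.6% in LW. Zm00001d045475, the highest H3 gene per length, supplied 26.5%, 22.9% and 33.1% in CW and 46.5%, 33.3% and 38.2% in LW. In the CW libraries 1 and 2 the first of these H3 genes outweighed the second, and in CW replicate 3 and every LW library the order was the opposite. Neither Zm00001d045475 (157 ± 37.7 CPM in CW, 190 ± 59.8 in LW) nor the third abundant H3 gene, Zm00001d036036 (log2 fold change 0.08), passed the test.

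Within H4, Zm00001d005791 supplied 39.0%, 41.8% and 34.5% of the FPKM in CW and 23.6%, 23.9% and 22.1% in LW. Zm00001d012439, the second H4 gene by level, supplied 18.0%, 19.1% and 20.9% in CW and 33.5%, 28.1% and 38.5% in LW, with a fitted log2 fold change of 0.17. The leading H4 copy was thus a different one in every LW library than in every CW library. These shares were computed after the called genes were known and are given as descriptions.

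**Figure D4:**
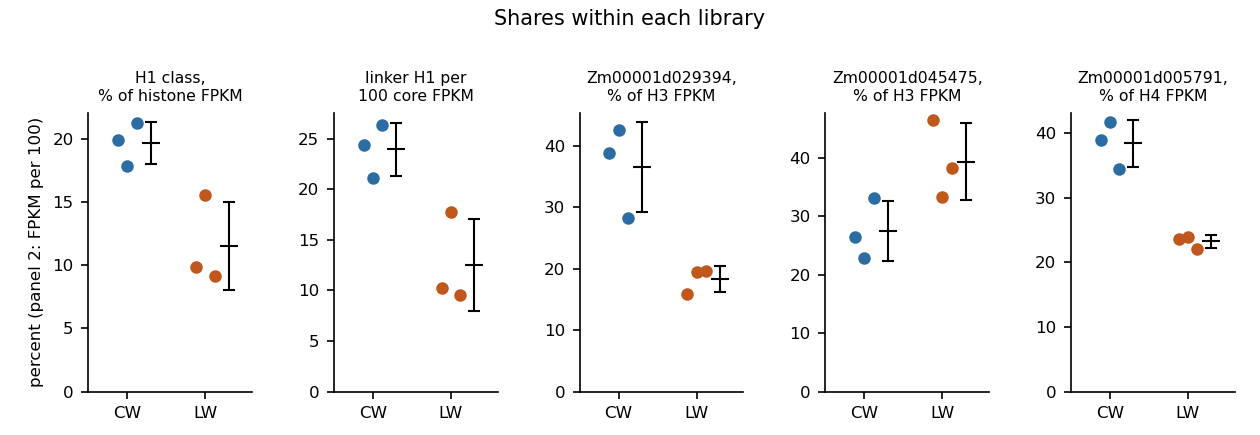
Shares within each library (vertical axes from 0; percent, and FPKM per 100 FPKM in the second panel) for CW (blue) and LW (orange) replicates 1 to 3, with the mean and SD (n = 3) in black. H1 and the called H3 and H4 genes take smaller shares in every LW library, while the H3 gene Zm00001d045475 takes 33.3% or more in LW and 33.1% or less in CW.

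Other histones gave mixed values. The abundant H2A.4 gene Zm00001d006213 measured 103, 72.1 and 87.6 CPM in CW and 65.3, 77.2 and 78.3 CPM in LW, overlapping groups whose direction turned under library totals. The most abundant H2B gene, Zm00001d047788, measured 95.3, 147 and 57.0 CPM in CW and 60.1, 50.4 and 68.6 CPM in LW (log2 fold change -0.74, edgeR adjusted p = 0.261). Of 13 tested H2B genes, none passed the test; the largest fold among those above 1 FPKM was that of Zm00001d042930, at 0.97, 3.39 and 0.65 CPM in CW and 0.68, 0.60 and 0.31 in LW.

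Low-level H3 and H4 copies had fitted changes of both signs, none past the test. The H3.2 gene Zm00001d003730 measured 3.18, 3.37 and 3.31 CPM in CW and 0.24, 0.24 and 0.85 CPM in LW (edgeR adjusted p = 0.0711). The H4 gene Zm00001d026015 went the other way, at 0.34, 0.65 and 0.19 CPM in CW and 0.94, 3.72 and 2.46 CPM in LW (adjusted p = 0.122). Centromeric histone H3, Zm00001d038533, which marks the site of spindle attachment, measured 16.5, 9.64 and 18.4 CPM in CW and 21.3, 19.7 and 23.7 CPM in LW; the groups did not overlap but the change was small (log2 0.54, adjusted p = 0.333).

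Some histone genes lie next to each other. Among all members, 20 pairs lie within 20000 bases, 9 of them with both genes tested, and 5 of those 9 had fitted changes of the same sign. The H4 neighbours Zm00001d020584 and Zm00001d020585, 8055 bases apart on chromosome 7, had log2 fold changes of -1.39 and -1.30. The convergent H2A and H2B genes Zm00001d047787 and Zm00001d047788 on chromosome 9 had -0.71 and -0.74. By contrast the H2A neighbours Zm00001d021706 and Zm00001d021707 had 0.49 and -0.17, so adjacency did not go with 1 direction throughout.

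No cyclin passed the test in either direction, although several levels differed between groups. D-type cyclins respond to growth signals and drive the step from rest into S phase. The most abundant of them, the D2-1 gene Zm00001d052185 at 15.4 FPKM, measured 53.0, 52.8 and 50.5 CPM in CW and 61.6, 59.0 and 75.9 CPM in LW (log2 fold change 0.33, edgeR adjusted p = 0.389). A second D2-1 gene, Zm00001d050475, measured 12.9, 30.3 and 2.44 CPM in CW and 1.16, 1.23 and 1.79 CPM in LW (log2 -3.45, SE 0.85, adjusted p = 0.0631). Its groups did not overlap, but CW replicate 3 lay close to the LW values.

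The D-type cyclin gene Zm00001d005928 had no count in any CW library, passed the filter only through LW, and measured 0.76, 0.69 and 1.03 CPM there, which with 3 counts placed in each CW library as a floor is at least 12.6-fold higher (edgeR adjusted p = 0.0530). The D5-1 gene Zm00001d028092 measured 2.78, 3.88 and 1.25 CPM in CW and 0.70, 0.35 and 0.40 CPM in LW (adjusted p = 0.0986). Of the 10 tested D-type cyclins, 5 were fitted above 0 and 5 below, and none passed the test. Among the 18 D-type members, 7 were listed at 0 in every library.

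B-type cyclins accompany entry into mitosis. All 4 tested ones, each described as B1-4, were fitted above 0. Zm00001d020033, at 13.6 FPKM, measured 30.2, 36.1 and 30.9 CPM in CW and 38.4, 46.9 and 52.6 CPM in LW (log2 fold change 0.50, edgeR adjusted p = 0.228). Zm00001d020996 measured 37.1, 21.7 and 30.9 CPM in CW and 35.1, 39.2 and 42.3 CPM in LW, which overlap. Zm00001d019469 was less abundant, at 0, 4.48 and 0.69 CPM in CW and 3.29, 6.35 and 8.80 CPM in LW (adjusted p = 0.475).

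A-type cyclins were low. Cyclin-A2, Zm00001d030849, the highest at 2.11 FPKM, measured 3.65, 5.18 and 4.67 CPM in CW and 4.02, 4.84 and 3.997 CPM in LW. The A3-1 gene Zm00001d048127 measured 4.26, 10.2 and 5.19 CPM in CW and 1.80, 3.98 and 3.73 CPM in LW (log2 fold change -1.05, edgeR adjusted p = 0.270). Neither passed the test.

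The other cyclins include those whose kinases act on transcription (types T, L and H) and the U type, related to yeast cyclins of phosphate signalling. Of 32 tested, 16 were fitted above 0 and 16 below. The L1-1 gene Zm00001d019684, the highest cyclin at 46.2 FPKM, measured 84.3, 85.1 and 90.1 CPM in CW and 72.5, 38.1 and 50.3 CPM in LW (edgeR adjusted p = 0.185). Cyclin-U3-1, Zm00001d038133, measured 147, 167 and 123 CPM in CW and 74.6, 79.3 and 64.2 CPM in LW (log2 fold change -0.999, SE 0.23, adjusted p = 0.0555), clearly separate groups that missed the threshold by a small margin. The cyclin-related gene Zm00001d039839 measured 0, 0 and 0.24 CPM in CW and 0.32, 1.16 and 0.98 CPM in LW (adjusted p = 0.309).

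Among CDKs, 20 of 40 genes were listed at 0 in every library and 13 were tested, none of them called. The gene named cyclin dependent kinase8, Zm00001d014438, whose counterparts in other organisms belong to the Mediator complex of transcription, was the highest at 18.7 FPKM, with 53.2, 65.7 and 94.2 CPM in CW and 51.9, 58.2 and 51.5 CPM in LW. The CDKA family gene Zm00001d053930 measured 15.8, 24.6 and 22.7 CPM in CW and 6.39, 3.11 and 9.41 CPM in LW (log2 fold change -1.74, edgeR adjusted p = 0.0687). The gene named cell division control protein2, Zm00001d027373, the type of kinase that drives the cycle, measured 6.09, 3.95 and 6.39 CPM in CW and 12.3, 9.31 and 11.5 CPM in LW (log2 1.01, adjusted p = 0.120).

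Zm00001d053930 and Zm00001d027373 had separate groups, in opposite directions. The CDKG-1 gene Zm00001d039121 was near the detection floor in CW, at 0, 0.85 and 0.07 CPM, and measured 0.82, 1.02 and 1.63 CPM in LW (edgeR adjusted p = 0.5001). The CDK regulatory subunit Zm00001d015611, a small protein that binds the kinase, had no count in CW and passed the filter only through LW, which fixed its separation. It measured 0.18, 0.61 and 1.26 CPM in LW, or at least 10.4-fold higher on the same floor (edgeR adjusted p = 0.0749). Its relatives Zm00001d027655 and Zm00001d048394 were detected in every library with log2 fold changes of 0.31 and 0.56.

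CDK inhibitors were among the better expressed cell cycle genes. The gene described as inhibitor EL2, Zm00001d048533, reached 147 FPKM, 64.3% of the FPKM of its class; in rice, EL2 is known as a stress-inducible inhibitor. It measured 72.0, 79.1 and 122 CPM in CW and 35.4, 72.9 and 32.0 CPM in LW (log2 fold change -0.96, edgeR adjusted p = 0.186), with LW replicate 2 inside the CW range. All 6 tested inhibitors with a numbered name were fitted below 0, from -0.70 to -0.12, and none passed the test; with library totals 3 of them were fitted above 0, at 0.14 to 0.24. Zm00001d052174, the highest of these at 27.4 FPKM, measured 45.3, 37.7 and 59.1 CPM in CW and 26.2, 34.0 and 31.6 CPM in LW (adjusted p = 0.185).

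Genes that license and copy DNA were low, and none was called. The MCM helicase opens DNA at replication origins and is loaded there by CDC6, while PCNA is the clamp that holds polymerases on DNA. Of 17 MCM genes, 5 were listed at 0 in every library and 4 more lay below the filter, among them the deposited MCM7 descriptions and every MCM3 gene. CDC6, Zm00001d042810, at 4.71 FPKM, measured 19.9, 9.57 and 1.56 CPM in CW and 33.3, 31.1 and 56.4 CPM in LW, separate groups with a wide spread in CW (log2 fold change 1.96, SE 0.79, edgeR adjusted p = 0.180).

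MCM6, Zm00001d037781, measured 4.33, 2.77 and 0 CPM in CW and 6.01, 6.57 and 10.1 CPM in LW (edgeR adjusted p = 0.497). MCM4, Zm00001d044540, had no count in CW, passed the filter only through LW, and measured 0.59, 0.42 and 1.18 CPM there. On the same floor this is at least 11.1-fold higher (edgeR adjusted p = 0.0623). Both had every LW library above every CW library, at levels near or below 1 FPKM. For MCM4 this separation followed from passing the filter without a CW count. CW libraries were also the less deeply sequenced, apart from CW replicate 3 against LW replicate 1, and the part of depth in these zeros was not tested.

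The 2 genes described as MCM5 did not separate the groups. Zm00001d018384 measured 3.73, 5.40 and 1.79 CPM in CW and 4.29, 3.24 and 7.73 CPM in LW, and Zm00001d052021, which overlaps another annotated gene, 0, 0.76 and 0 CPM in CW and 0, 1.70 and 1.22 CPM in LW. Zm00001d049190, named MCM7 but described as MCM2, measured 0.81, 0.25 and 14.9 CPM in CW and 1.26, 1.62 and 0.55 CPM in LW. Its fitted log2 fold change of -2.22 rested on CW replicate 3 and was 1.11 without that library.

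Relatives outside the core helicase differed in sign. MCM10, Zm00001d022619, an initiation factor, measured 18.7, 35.04 and 11.5 CPM in CW and 6.68, 7.13 and 7.92 CPM in LW (log2 fold change -1.59, SE 0.43, edgeR adjusted p = 0.0766), with every LW library below every CW library. The most abundant member, Zm00001d025203, described as an MCM family protein, reached 15.1 FPKM and measured 30.1, 32.1 and 25.0 CPM in CW and 35.5, 25.3 and 25.0 CPM in LW. MCM8, Zm00001d010567, which in Arabidopsis acts in meiotic recombination and here overlaps another gene, gave a log2 fold change of -0.24.

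Both PCNA genes had every LW library above every CW library, as did 19.7% of all tested genes. PCNA, Zm00001d018415, measured 1.05, 5.31 and 6.03 CPM in CW and 8.402, 7.42 and 6.27 CPM in LW (log2 fold change 0.83, edgeR adjusted p = 0.462). PCNA2, Zm00001d051995, measured 0, 1.07 and 0.39 CPM in CW and 2.50, 1.56 and 2.15 CPM in LW (log2 2.07, adjusted p = 0.399). Neither passed the test, and at 4.34 and 0.87 FPKM both were far below the most abundant histone genes.

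**Figure D5:**
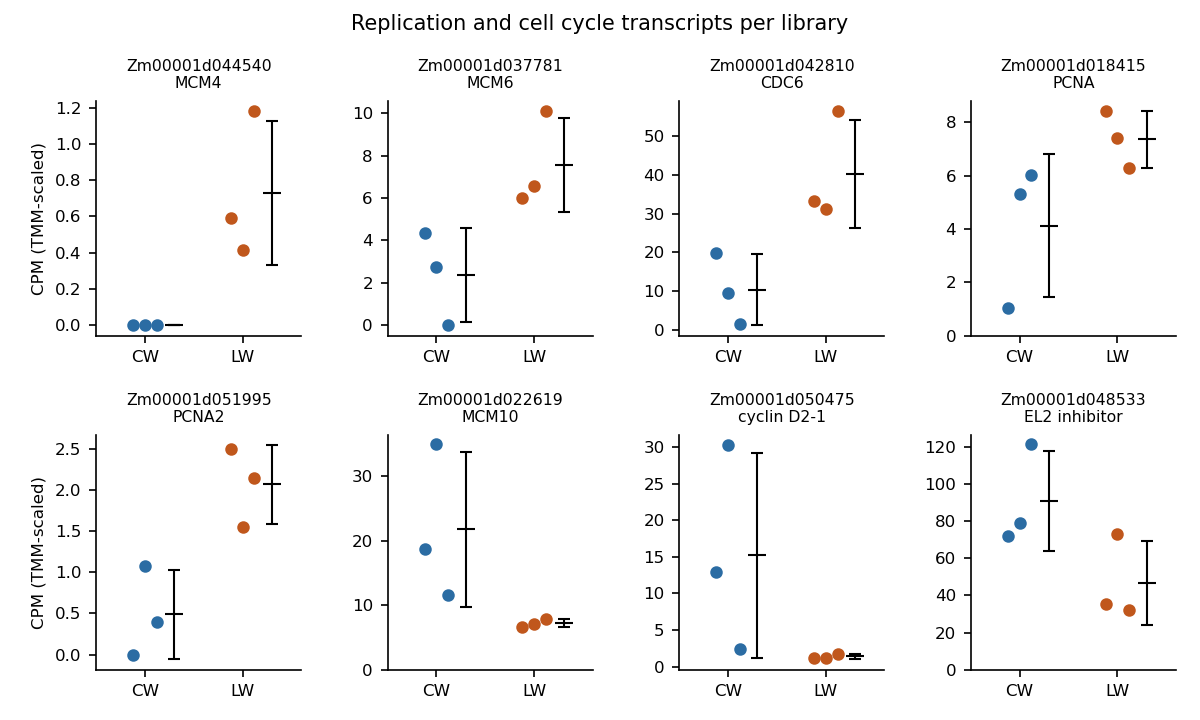
CPM (vertical axes) of replication genes, a cyclin and a CDK inhibitor in each library, with replicates 1 to 3 from left to right in CW (blue) and LW (orange) and the mean with SD (n = 3) in black. MCM4, MCM6, CDC6 and both PCNA genes lie higher in every LW library, MCM10 and cyclin D2-1 lower, and the EL2 inhibitor overlaps; none passed the test. MCM4 had no count in CW and passed the filter only through LW, which fixed its separation.

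The only called gene of the replication and division group was a CDC50 gene, which rose in LW. Proteins of this family are known as subunits of P4-type ATPases that move lipids across membranes. Zm00001d053778 (chromosome 4, 240939248 to 240942799) measured 9.11, 10.3 and 14.8 CPM in CW and 29.2, 33.0 and 24.1 CPM in LW, 2.52-fold higher (log2 1.34, SE 0.29, edgeR adjusted p = 0.0468). It remained called without CW replicate 3 and lost its call with any other library left out. The second CDC50 gene, Zm00001d046948, measured 41.9, 40.5 and 14.8 CPM in CW and 16.2, 25.8 and 23.3 CPM in LW, which overlap.

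The highest level of the group was that of 1 gene. Zm00001d031222, described only as a cell division protein of the AAA ATPase family, reached 229 FPKM, the highest of all 290 genes, and measured 272, 147 and 51.0 CPM in CW and 570, 662 and 541 CPM in LW (log2 fold change 1.92, SE 0.56, edgeR adjusted p = 0.0898). All LW libraries were above all CW libraries, and the CW libraries spread widely, CW replicate 3 being the lowest. The group's sum was 1712 ± 145 CPM in LW against 1031 ± 138 in CW, and the difference rests in large part on Zm00001d031222. The sums themselves do not, as the 21 CDC48 genes together gave 595 CPM in LW and 466 in CW.

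CDC48, an ATPase that extracts ubiquitin-tagged proteins, accounted for 21 genes, of which 10 were tested and none called; 6 were fitted above 0 and 4 below. Zm00001d045566, which overlaps another gene, measured 5.46, 5.20 and 8.50 CPM in CW and 15.1, 19.1 and 15.7 CPM in LW (edgeR adjusted p = 0.0557). Zm00001d032859 measured 80.1, 52.0 and 84.4 CPM in CW and 140, 140 and 132 CPM in LW (adjusted p = 0.0800). The gene named cell division cycle202, Zm00001d016034, counted here with CDC20, an activator of the anaphase-promoting complex, measured 80.7, 67.0 and 103 CPM in CW and 117, 151 and 113 CPM in LW (log2 fold change 0.60, adjusted p = 0.212).

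Genes of plastid division matched the words through FtsZ, the bacterial-type ring protein, and a topological specificity factor. All 4 tested ones were fitted above 0, and none was called. The FtsZ gene Zm00001d010135 measured 9.56, 8.03 and 11.1 CPM in CW and 14.2, 29.3 and 17.8 CPM in LW (log2 fold change 1.09, edgeR adjusted p = 0.108). Zm00001d001939 measured 4.12, 7.96 and 7.85 CPM in CW and 10.0, 14.9 and 14.5 CPM in LW (adjusted p = 0.160). The plastid protein-targeting factor FtsY, Zm00001d042044, went the other way, at 33.4, 53.6 and 32.5 CPM in CW and 24.0, 22.9 and 24.9 CPM in LW (adjusted p = 0.150).

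Of the 4 genes that matched by letters alone, 3 encode ribosome recycling factors, which free ribosomes after a protein is finished, and 1 a cyclin-like F-box protein. Zm00001d025745 rose in LW, from 4.23, 5.58 and 4.98 CPM to 12.3, 16.0 and 13.3 CPM (2.82-fold, edgeR adjusted p = 0.0419), a call lost with any 1 library left out except CW replicate 3. The 2 recycling factors described as chloroplastic had the opposite sign and missed the threshold: Zm00001d049694 measured 144, 185 and 61.2 CPM in CW and 29.6, 40.1 and 41.4 CPM in LW (adjusted p = 0.0547), and Zm00001d035051 gave a log2 fold change of -1.10 (adjusted p = 0.0646).

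Further cell cycle genes were read from lists matched by words, members left out. The counts on these lists were not tested and stand beside 2.84% of all tested genes called higher and 2.40% called lower. Of 37 tested S phase genes 1 was called higher, with a list median log2 fold change of 0.02. It was Zm00001d045192, described as the large subunit of ribonucleotide reductase, which makes DNA precursors, although its deposited name is that of a proline-rich protein; it rose from 6.11 to 18.8 CPM (log2 1.62, edgeR adjusted p = 0.0374). Replication protein A subunit Zm00001d017324, the highest of the list, averaged 33.6 CPM in CW and 52.7 in LW (adjusted p = 0.157).

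Of 86 tested mitosis genes 1 was called higher and 1 lower, against 2.84% and 2.40% of all tested genes, with a median of 0.04. The centromere protein-like gene Zm00001d048040 rose from 1.17 to 6.95 CPM (edgeR adjusted p = 0.0317), and the spindle organizing gene Zm00001d012933 fell from 12.7 to 4.10 CPM (adjusted p = 0.0424). The anaphase-promoting complex subunit Zm00001d009440, the highest of the list, had a log2 fold change of -0.39. None of 28 transcriptional regulators of the E2F, retinoblastoma and TSO1 types was called (median 0.18), and the highest, Zm00001d041445, had -0.24, a direction that turned under library totals. Without CW replicate 3, 5 mitosis genes and 3 of these regulators were called higher and 3 mitosis genes lower. Calls rose over all genes in that fit, to 1678 higher and 1287 lower of 24704.

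Histone chaperones hand histones to DNA. Of 16 tested, 1 was called higher and none lower, against 2.84% and 2.40% of all tested genes, with a median of 0.61. Zm00001d045352, described as nucleosome assembly protein 1;2, rose from 31.1 to 77.6 CPM (log2 1.32, edgeR adjusted p = 0.0389). Zm00001d002659, the highest of the list, averaged 85.8 CPM in CW and 44.5 in LW (adjusted p = 0.302). A growth list was matched by the words growth-regulating factor, GRF-interacting, AINTEGUMENTA and TCP transcription factor. None of its 12 tested genes was called, and 11 were fitted below 0 (median -0.33), with the highest, Zm00001d006348, at -0.24. With library totals 5 of the 12 were fitted below 0 (median 0.0379), and the sign of Zm00001d006348 turned. None of 5 further plastid division genes was called (median -0.15), and the highest, Zm00001d018718, had -0.44. The 4 calls on these lists were made again without CW replicate 3 and lost with any other library left out.

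The RNA carried the marks of green leaf in both groups and differed in them. Of 25 tested genes of photosynthetic leaf cells, 18 were called lower in LW, against 2.40% of all tested genes. The sum of that list was 14580 ± 2073 CPM in LW against 73900 ± 15740 in CW. Of 51 shoot meristem genes, 24 were listed at 0 in every library, knotted1 among them. None of the 19 tested was called, and 13 were fitted above 0 (median log2 fold change 0.67). In 9 every LW library was above every CW library and in 1 below, against 19.7% and 14.9% of all tested genes. The sum of the list was 1819 ± 261 CPM in LW and 1967 ± 842 CPM in CW. By library totals the ratio of LW to CW was 1.18. Of 34 tested genes of reproductive tissue and seed 1 was called higher, and of 13 tested root genes 2 were called higher. Over all tested genes 2.84% were called higher. These tissue calls depended on the libraries too: 18 photosynthetic genes were called without CW replicate 3, 2 without CW replicate 1 and none with any other library left out, and without CW replicate 3 there were 4 meristem genes called higher, 4 reproductive ones higher and 2 lower, and 3 root ones higher. Over all 24704 tested genes, 1678 were called higher and 1287 lower without CW replicate 3. The part of these cell types in the histone and cell cycle values was not tested.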

How the data were processed

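Leaf RNA was sequenced in 6 libraries, 3 LW and 3 CW, grouped by title and treatment label. The source name of CW replicate 2 carries another replicate's number, and its title was followed. Poly(A) selection is described per the labels' protocols, but the same text also mentions a poly(A)- fraction and adipose tissue, so this step is unclear. Per the submitters' processing notes, FastQC 0.10.1, HISAT2 2.0, StringTie 1.3.4 and edgeR were used; the sources used here give neither their roles nor the genome build, annotation or strand setting.

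The authors deposited 1 table with FPKM values and a count per gene and library. In the deposited counts 28.6% to 31.4% of values from 1 to 40 are multiples of 4, so they were treated as estimated counts, already whole. The floor of 3 counts covers counting error only.

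edgeR 4.0.16 (R 4.3.3) was run on the deposited counts with TMM, filterByExpr, glmQLFit and glmQLFTest, the group as the only term, over 24704 genes. The filter lies near 0.158 CPM in 3 libraries; 4 tested members reached it in no CW library and 0 in no LW library, so counts over tested members are not counts over all members. Members and lists were chosen with earlier results of these data known. Named genes were the called members, the highest gene of each class and its most changed one among those with a mean of at least 1 FPKM in the higher group, and every tested MCM and PCNA gene; others were named after their values were seen. Alternatives were DESeq2 1.42.0, its size factors, library totals, no filter, limma 3.58.1 on log2(FPKM + 1) or log2(FPKM + 0.1), quantile normalization, a replicate block and leaving out each library. No 2 libraries agreed within counting noise. The fits were tested on simulated data. No sequences are printed.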

Additional observations from a re-analysis of the deposited data

How the results depend on the processing

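Counts are given as higher and lower in LW. Over all genes, 701 and 592 were called; DESeq2 called 2421 and 2036, library totals alone 1425 and 346, limma on log2(FPKM + 1) 2345 and 557, on log2(FPKM + 0.1) 2096 and 536, without a filter 1779 and 372, and after quantile normalization 1056 and 824. Histones called numbered 0 and 4, but 1 and 12 with DESeq2, 0 and 0 with library totals, 1 and 4 or 1 and 5 with limma at the small and the larger pseudocount, and 0 and 1 without a filter. Cyclins and CDKs called numbered 0 and 0, but 3 and 6 with DESeq2, 1 and 0 with library totals and with limma at either pseudocount, 2 and 0 without a filter and 0 and 1 after quantile normalization. Replication and division genes called numbered 1 and 0, but 6 and 1 with DESeq2, 3 and 0 with library totals, 4 and 0 or 6 and 0 with limma at the small and the larger pseudocount, 4 and 0 without a filter and 2 and 0 after quantile normalization. The other cell cycle lists held 3 and 1, but 12 and 5 with DESeq2, 6 and 0 with library totals, 7 and 1 with limma at either pseudocount, 5 and 1 without a filter and 1 and 2 after quantile normalization.

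No pairing by replicate number was seen: correlations of deviations were -0.00688, -0.0055 and -0.162 for libraries of the same number. Those of different numbers ran from -0.0944 to 0.115. With 3 libraries per group these values cannot settle whether samples were paired. With the replicate block 2 genes were called higher and 1 lower, none of them a member or on the other cell cycle lists, and the median of other cyclins less that of all genes was 0.23. Leaving out 1 library gave 0 to 1678 genes called higher and 0 to 1287 lower, 0 to 9 histones lower, 0 to 3 cyclins and CDKs higher and 0 to 4 lower, 0 to 4 replication and division genes higher and 0 to 1 lower, and 0 to 12 and 0 to 3 on the other lists. The highest counts came without CW replicate 3; without CW replicate 2 no gene was called by edgeR, while 5062 had an unadjusted p under 0.05. Groups of 2 libraries limit what these fits can call.

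Class medians less the all-gene median that moved by more than the replicate spread were those of D-type cyclins (0.24 with limma at 0.1), CDKs (0.59 with no filter on counts; 0.0360 to 0.58 with a library left out), MCM and licensing (1.76 with no filter on counts, -0.11 with limma at 0.1; 0.00539 to 0.96) and PCNA (0.69 after quantile normalization; 0.87 to 2.13). With FPKM rescaled, summed levels less the all-gene median were -0.32 for H3, -0.0938 for CDKs and -0.15 for MCM and licensing. The cause of these moves was not tested.

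Among the named genes, fitted changes that turned sign were small, except that of Zm00001d049190. Zm00001d006213 gave 0.11 with library totals and with limma, and 0.0598 after quantile normalization. Zm00001d030849 gave 0.30 with library totals, 0.20 and 0.28 with limma at 1 and 0.1, and -0.20 to 0.0421 with a library left out. Zm00001d025203 gave 0.33, 0.30 and 0.31 in the same order and 0.00353 after quantile normalization, and -0.18 to 0.0764 with a library left out. Zm00001d010567 gave 0.12, 0.0746 and 0.13, and -0.39 to 0.0182 with a library left out. Zm00001d041445 gave 0.12, 0.11 and 0.11, and Zm00001d006348 0.11, 0.11 and 0.11. Zm00001d049190 ran from -2.78 to 1.11 with a library left out.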
